A study of Rattus norvegicus with 24 samples.

Results

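Protocadherins are the largest family of cadherin-type adhesion proteins in the brain. The genes examined are the 45 whose symbol starts with Pcdh, out of 20318 features measured in the rat hippocampus, with Pcdh10 left aside because its level tracks a technical division of the libraries described below. They comprise 34 clustered genes (2 alpha, 17 beta and 15 gamma) and 11 non-clustered genes. Of these, 44 reached a mean of at least 10 normalised counts and were tested. Pcdhb1 did not, with a mean of 1.66 and a range of 0 to 5.15 over the 24 libraries.

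All animals were female rats aged 6 months at surgery, and RNA came from frozen hippocampus. The SHAM group (n = 7) kept its ovaries and received vehicle for 7 weeks. The OVX group (n = 7) had its ovaries removed and received vehicle for 7 weeks. The Prevention group (n = 5) was ovariectomised and received estradiol (E2) for 5 weeks, and the Treatment group (n = 5) was ovariectomised and received vehicle for 3 weeks and then E2 for 2 weeks. The labels thus give the 2 E2 groups a shorter total course than the vehicle groups. The strain is not named, and no label says whether each library came from a separate animal, so p-values measure the spread between libraries, which may be partly technical.

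Clustered protocadherins are encoded in 3 neighbouring arrays, alpha, beta and gamma. In each array a variable exon carries its own promoter, and a neuron transcribes a small, partly random set of them, so that the combination of proteins on its surface marks it as self. Alpha and gamma variable exons are spliced to constant exons shared within their array, whereas a beta gene is a single exon with no shared part. The choice of promoter is known to depend on CTCF and cohesin looping between promoters and distant enhancers. Non-clustered protocadherins are separate genes with ordinary promoters, and are divided by their cytoplasmic tails mainly into the delta-1 and delta-2 groups, which are known for roles in axon outgrowth and synapse adhesion.

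The promoters of the beta genes are shown first because the most closely correlated members lie among them. RefSeq promoters in the GRCr8 assembly (300 bases, from 250 before to 50 after the annotated start) were matched by symbol. The most frequent 10-base word among the clustered promoters was GGTGGCGCTG, searched on both strands with no other motif. It was present in 15 of all 19 beta promoters of the reference table (78.9%) and in 14 of the 15 whose gene is in the deposited table (93.3%; Pcdhb1 lacked it, and Pcdhb11 and Pcdhb22 were not matched to a promoter), in 0 of 16 alpha and gamma promoters, in 0 of 11 non-clustered promoters with Pcdh10 included, and in 74 of 33469 promoters overall (0.221%). As background, clustered promoters are known to carry a conserved element with a CGCT core. The word was picked from these promoters, so its share among them is a description. The windows of 50 bases around it in 7 neighbouring genes, all on the + strand, read as follows, with the word in capitals.
Pcdhb4 (chr18:29292206-29292255): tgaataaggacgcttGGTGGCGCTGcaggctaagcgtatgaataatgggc
Pcdhb5 (chr18:29302399-29302448): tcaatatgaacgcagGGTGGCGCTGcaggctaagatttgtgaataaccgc
Pcdhb6 (chr18:29320147-29320196): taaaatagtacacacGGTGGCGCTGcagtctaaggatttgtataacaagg
Pcdhb7 (chr18:29328993-29329042): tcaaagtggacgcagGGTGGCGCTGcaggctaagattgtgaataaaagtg
Pcdhb8 (chr18:29339253-29339302): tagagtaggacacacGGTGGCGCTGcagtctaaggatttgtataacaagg
Pcdhb9 (chr18:29379243-29379292): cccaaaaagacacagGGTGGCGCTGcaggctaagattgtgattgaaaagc
Pcdhb10 (chr18:29391773-29391822): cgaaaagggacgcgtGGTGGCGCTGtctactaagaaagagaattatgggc
The windows of Pcdhb6 and Pcdhb8 were identical at 47 of 50 bases, whereas those of Pcdhb5 and Pcdhb6 matched at 31 and those of Pcdhb5 and Pcdhb9 at 34. The word began 52 bases before the annotated start in Pcdhb5 and Pcdhb9, and 229 and 208 bases before it in Pcdhb6 and Pcdhb8.

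Of the 45 symbols, 41 matched the reference. Pcdhgb4 and Pcdhgb6 did not, and Pcdha11 and Pcdhgb5 are listed there as synonyms of Pcdha4 and Pcdhgb8, which have rows of their own in the deposited table. Of the 12 matched gamma genes, 10 share 1 annotated end in the reference. Reads from shared or near-identical sequence may have been divided among genes by the authors' quantification, so the value of any single clustered gene is uncertain. None of the 45 symbols is a C-type gene (Pcdhac1, Pcdhac2, Pcdhgc3, Pcdhgc4 or Pcdhgc5), so these genes enter no sum or test here. Values are not scaled by transcript length, so levels are compared between libraries and not between genes.

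Column totals ran from 35.4 to 38.8 M (mega) normalised counts, and no pair of libraries had identical columns. All 5 Prevention libraries and Treatment 1 and 2 stand apart from the other 17 by the level of the transcript LOC257642. Pcdh10 ran from 52221 to 178650 in these 7 libraries and from 6596 to 100490 in the others. Because every Prevention library is in this set and every SHAM and OVX library is outside it, E2 in the Prevention group and the library set cannot be told apart within a set, and only the division of the Treatment group between the sets informs a fit with the set as a term. The 16 markers of hippocampal pyramidal and granule neurons summed to between 136140 and 213300 normalised counts, with none at 0 in any library. The thalamus marker Tcf7l2 was over 1000 (1573 to 3357) in Prevention 1 and 4, Treatment 6, OVX 2 and SHAM 5, and between 278 and 773 in the other 19 libraries. The summed thalamus and habenula markers ran from 19869 to 25224 in those 5 libraries and from 5943 to 11673 in the others. The summed markers of choroid plexus ran from 4272 to 197280, and every group spanned at least from 5756 to 104730.

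No protocadherin passed an adjusted p of 0.05 in any of the 6 comparisons by limma. The alpha genes summed to 4750 ± 282 normalised counts in SHAM (SD, n = 7), 4717 ± 221 in OVX (n = 7), 5244 ± 170 in Prevention (n = 5) and 4964 ± 403 in Treatment (n = 5). The beta genes summed to 3335 ± 232, 3337 ± 222, 3631 ± 129 and 3541 ± 174 in the same order. The gamma genes summed to 5823 ± 474, 5256 ± 475, 5687 ± 268 and 5641.5 ± 417. The beta and gamma sums overlapped between all groups. In the alpha sum all 5 Prevention libraries (5045 to 5473) lay above all 7 OVX libraries (4268 to 4948). This sum is mostly Pcdha11, with a mean of 4947 in Prevention and 4433.5 in OVX. Pcdha4 overlapped, with 242 to 339 in Prevention and 222 to 313 in OVX. The share of all tested genes without overlap in this comparison was not counted.

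**Figure D1:**
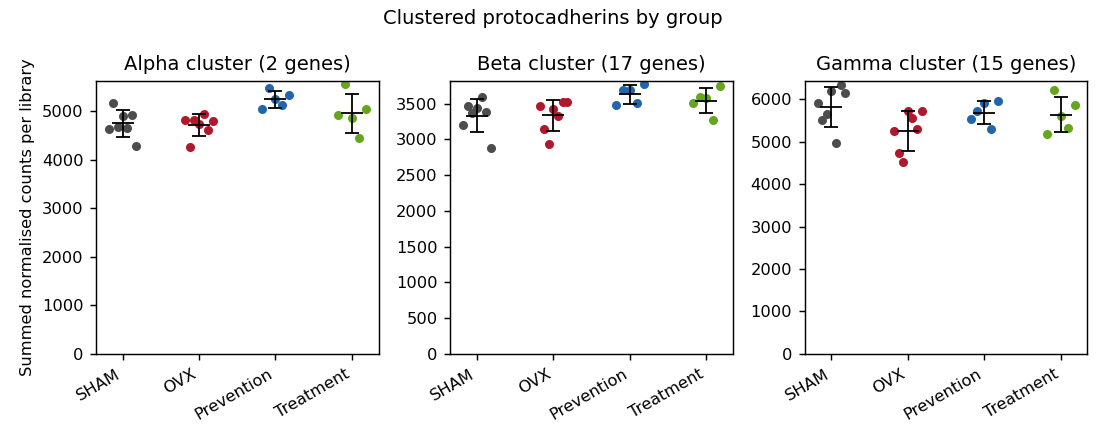
Summed normalised counts per library (vertical axis, from 0) of the alpha, beta and gamma genes in the 4 groups, 1 point per library, with the group mean ± SD. The alpha sums of Prevention, which are mostly Pcdha11, lie above those of OVX. The gamma sums are lowest on average in OVX (5256) and overlap with the other groups.

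Single clustered genes varied more between libraries of 1 group than most genes did. The median within-group SD of log2 values was 0.22 over the 33 tested clustered genes and 0.23 over the 11 non-clustered genes, against 0.15 over all 16119 tested genes. Pcdhga1, the first gene of the gamma array, had the widest spread, with an SD of 0.64 and values from 24.9 to 137 normalised counts. Its higher values came from single libraries of several groups, with 137 in Prevention 3, 130 in Treatment 1, 99.9 in OVX 1 and 96.0 in OVX 3. Pcdha11 had the narrowest spread, with an SD of 0.08 and values from 3956 to 5233. Lower levels carry more counting noise, which was not separated from other variation here.

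The first comparison asks what loss of the ovaries did under vehicle. In OVX against SHAM most gamma genes had a lower mean, without any gene passing: 14 of 15 gamma genes had a negative log2 difference, with a median of -0.13, against 10 of 16 beta genes with a median of -0.01 and 9 of 11 non-clustered genes with a median of -0.11. Over all tested genes 51.7% were positive and the median was 0.00. The background share called at an adjusted p of 0.05 was 0%, and 6.25% of all tested genes had an unadjusted p under 0.05 (3.37% lower in OVX), against 4 of 33 clustered genes and 1 of 11 non-clustered genes, all lower in OVX. Genes that share an array, and perhaps reads, are not independent of each other. The gamma sums of OVX 3 (4517) and OVX 2 (4724) were the lowest of all libraries. In the other OVX libraries they ran from 5242 to 5722.5, within the SHAM range of 4982 to 6340. Of the libraries of these groups, OVX 2 and SHAM 5 (gamma sum 4982) had Tcf7l2 over 1000, and OVX 3 did not. When 1 library was left out, the mean log2 difference of the clustered genes ran from -0.085 to -0.032 (-0.066 with all libraries).

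Pcdhga2 ranged from 566 to 685 normalised counts in OVX with a median of 658.5, and from 632 to 834 in SHAM with a median of 821. OVX 2, 3 and 6 lay under the whole SHAM range, and the other OVX libraries lay within it. Its log2 difference was -0.23 with a standard error of 0.09 and an adjusted p of 0.795 by limma. Pcdhgb6 ranged from 218 to 396 in OVX (median 313) and from 341 to 470 in SHAM (median 389), a difference of -0.32 (adjusted p 0.795). Pcdhga9 ranged from 73.4 to 136 in OVX (median 111) and from 107 to 153 in SHAM (median 121), a difference of -0.31 (adjusted p 0.795). In both genes several OVX libraries fell under the whole SHAM range while others lay inside it. The exception among the gamma genes was Pcdhga1, with 58.6 ± 27.5 in OVX and 39.7 ± 12.9 in SHAM (SD, n = 7 each; log2 difference 0.49, standard error 0.32, adjusted p 0.842).

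Estradiol given from the start was compared with OVX next. In Prevention against OVX most protocadherins of every class had a higher mean, again with none passing. Of the 33 tested clustered genes 31 had a positive log2 difference (2 of 2 alpha, 15 of 16 beta, 14 of 15 gamma; median 0.14), as had 10 of 11 non-clustered genes (median 0.22). Over all tested genes 50.2% were positive and the median was 0.00. The background share called was 0.304%, and 18.6% of all tested genes had an unadjusted p under 0.05 (10.1% higher in Prevention), against 4 of 33 clustered genes and 1 of 11 non-clustered genes, all higher. The share of members under that p was thus near the background in both classes.

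Pcdha11 was the member nearest to the threshold. Its values were 4724, 5196, 5002, 4816.5 and 4996.5 normalised counts in the 5 Prevention libraries, and ran from 3956 to 4644 in OVX with a median of 4498. The Prevention libraries all lay above the OVX libraries, and the share of all tested genes that do so was not counted. The log2 difference was 0.16 with a standard error of 0.05 and an adjusted p of 0.101 by limma. With the library set as a term the log2 difference was 0.03 with an adjusted p of 0.999. With the choroid plexus score, the thalamus score or Tcf7l2 over 1000 as a term it passed, at adjusted p values of 0.0274, 0.0247 and 0.019 and log2 differences of 0.17, 0.18 and 0.19. Without the 5 libraries with Tcf7l2 over 1000 it did not (adjusted p 0.226). The part of the library set in this difference was not tested beyond that fit.

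Pcdhga9 was 139, 115, 154, 148 and 152 normalised counts in the Prevention libraries, and 73.4 to 136 in OVX. Prevention 2 lay within the OVX range and the other 4 lay above it. The log2 difference was 0.47 with a standard error of 0.15 and an adjusted p of 0.106 by limma. Without OVX 7 the adjusted p was 0.0492. With the library set as a term the log2 difference was 0.55 with an adjusted p of 0.999. Of the beta genes, Pcdhb20 was 229 ± 24.2 in Prevention (SD, n = 5) and 191 ± 26.7 in OVX (n = 7), a log2 difference of 0.26 (adjusted p 0.166), and Pcdhb2 was 66.8 ± 16.5 and 48.1 ± 14.5, a difference of 0.50 (adjusted p 0.233). The values of both genes overlapped between the groups.

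**Figure D2:**
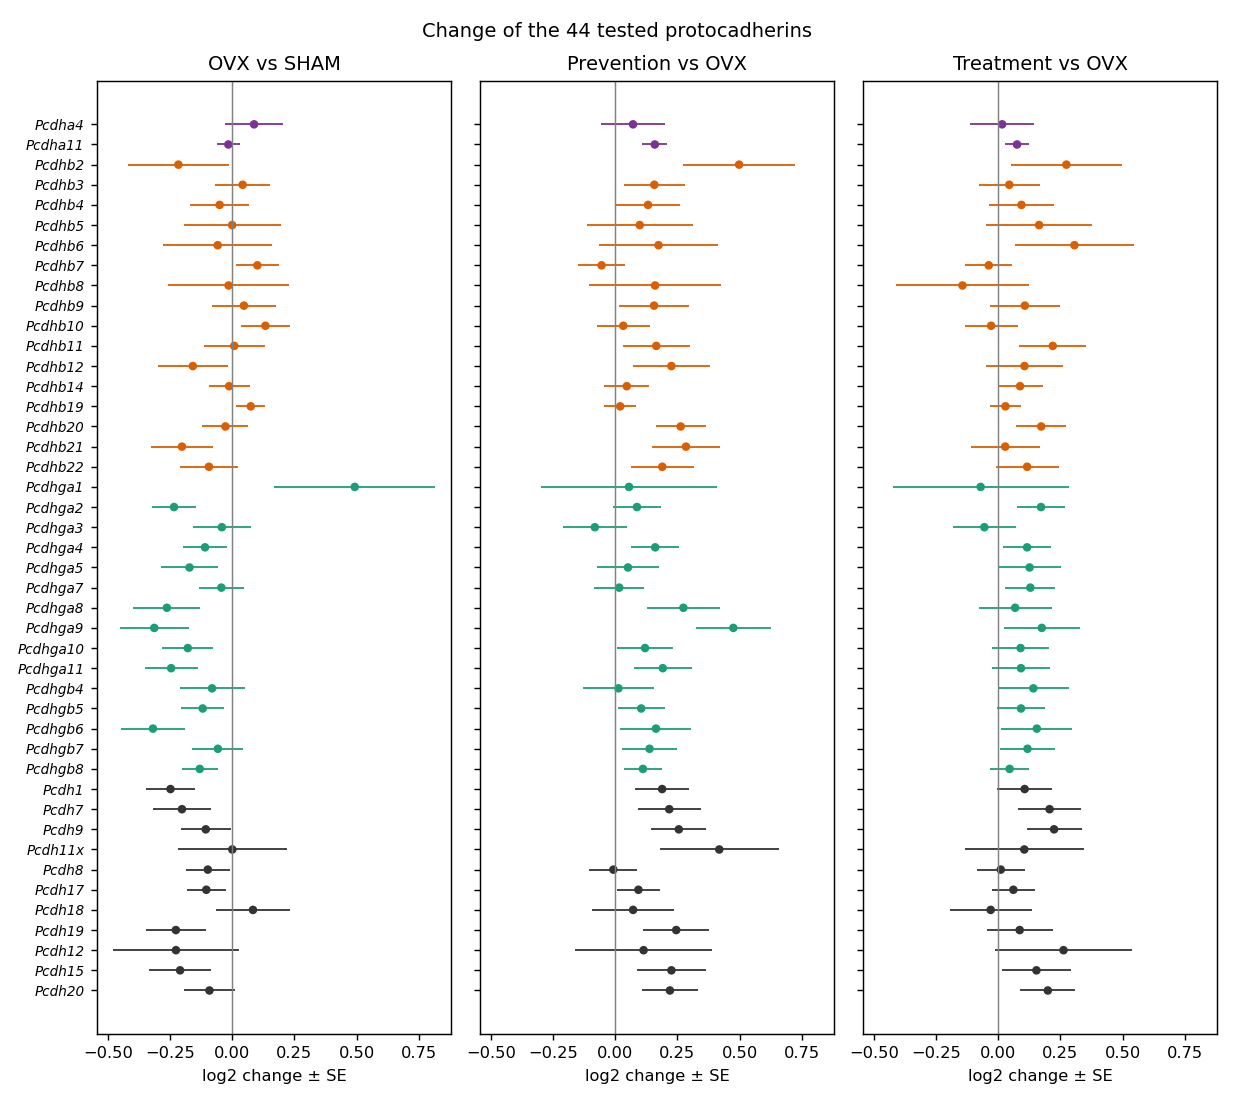
Log2 difference (horizontal axis, same scale in each panel) with its standard error for each of the 44 tested protocadherins in the 3 comparisons OVX against SHAM, Prevention against OVX and Treatment against OVX, coloured by class (alpha purple, beta orange, gamma green, non-clustered black). The OVX group enters all 3 panels. Gamma points lie mostly to the left of 0 in the first panel (14 of 15), and clustered points mostly to the right in the second (31 of 33).

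With delayed estradiol, in Treatment against OVX, the mean differences were smaller. Of the clustered genes 28 of 33 were positive (median 0.09), and of the non-clustered genes 10 of 11 (median 0.11), against 49.4% and a median of -0.00 over all tested genes. The background share called was 0%, and no member had an unadjusted p under 0.05, against 7.19% of all tested genes. Pcdha11 was 4616, 5233, 4543, 4227 and 4763 normalised counts in the Treatment libraries and overlapped OVX, with a log2 difference of 0.08 (adjusted p 0.739). Pcdhb6, with 151 ± 21.8 in Treatment and 123 ± 22.9 in OVX (SD, n = 5 and 7), had the largest positive difference (0.31, standard error 0.24, adjusted p 0.78), and Pcdhb8 the largest negative one (-0.14, adjusted p 0.914). OVX is the reference of both E2 comparisons and the first group of the comparison with SHAM. A low OVX mean thus enters all 3 with the same libraries, among them OVX 3 and OVX 2, which had the lowest gamma sums.

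Treatment and Prevention did not differ past the threshold in any member. In Treatment against Prevention 22 of 33 clustered genes (median -0.04) and 9 of 11 non-clustered genes (median -0.03) were negative, against 48.9% positive over all tested genes, and 0% of all genes were called. No member had an unadjusted p under 0.05, against 5.38% of all tested genes. Pcdhga9 was 106, 115, 149, 110 and 96.7 in Treatment, with only Treatment 5 among the higher Prevention values, a log2 difference of -0.30 (adjusted p 0.937). Pcdhb8 had the same size of difference (-0.30, adjusted p 0.979).

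Against SHAM, most beta genes of both E2 groups had a higher mean and most gamma genes a lower one. The mean log2 difference over the gamma genes was near 0, at 0.004 in Prevention and -0.028 in Treatment. This contrast between the arrays was not tested, and in Prevention it cannot be told apart from the library set. In Prevention against SHAM 16 of 16 beta genes had a positive log2 difference (median 0.11), and 5 of 15 gamma genes (median -0.03), and 7 of 11 non-clustered genes (median 0.02). Of all tested genes 50.9% were positive, 0.354% were called and 13.3% had an unadjusted p under 0.05 (7.42% higher in Prevention), which Pcdha11 and Pcdhb20 also had. Pcdha11 overlapped SHAM, which ran from 4100 to 4921 (log2 difference 0.14, adjusted p 0.197). It passed with the choroid plexus or the thalamus score as a covariate (adjusted p 0.0219 and 0.0427), but not with Tcf7l2 over 1000 as a term (0.0572) or without the 5 libraries with Tcf7l2 over 1000 (0.202). With the library set as a term the log2 difference was 0.02 (adjusted p 0.993). In Treatment against SHAM 13 of 16 beta genes (median 0.08), 5 of 15 gamma genes (median -0.06) and 6 of 11 non-clustered genes (median 0.00) were positive, against 51.6% of all tested genes. There 0.0062% of all genes were called, and 0 members had an unadjusted p under 0.05, against 6.1% of all.

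The delta-1 genes have long cytoplasmic tails that bind protein phosphatase-1. Pcdh1, also known as a cell entry receptor of New World hantaviruses, ran from 9288 to 12806 normalised counts in OVX with a median of 10751, and from 9411 to 15011 in SHAM with a median of 13110. Of the SHAM libraries 6 lay between 12808 and 15011, above every OVX library, and SHAM 5 lay at 9411. The log2 difference of OVX against SHAM was -0.25 with a standard error of 0.10 and an adjusted p of 0.795 by limma. Pcdh1 was 12488 ± 1733 in Prevention and 11798 ± 1728 in Treatment (SD, n = 5 each), between the 2 vehicle groups. SHAM 5 is also the library with the highest Tcf7l2, as described below.

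Pcdh9, a further delta-1 gene, was 2500, 3161, 2475, 3092 and 2595 normalised counts in the Prevention libraries and ran from 1653 to 2771 in OVX with a median of 2232. Only 2 Prevention libraries lay above the OVX range. The log2 difference was 0.26 with a standard error of 0.11 and an adjusted p of 0.215 by limma, and 0.22 in Treatment against OVX (adjusted p 0.699). Pcdh7, which is known to regulate NMDA receptors, was 1223 ± 103 in SHAM, 1081 ± 221 in OVX, 1248 ± 236 in Prevention and 1231 ± 159 in Treatment (SD, n = 7, 7, 5 and 5). Pcdh11x, an X-linked gene, was 108 ± 27.0, 109 ± 32.6, 144 ± 37.9 and 118 ± 38.1 in that order. Its difference in Prevention against OVX was the largest of the non-clustered genes (0.42, standard error 0.24, adjusted p 0.361 by limma). With the library set as a term it was 0.82 (adjusted p 0.999).

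Several delta-2 protocadherins, though not all, are known to bind the WAVE complex, which drives actin branching. Pcdh8 (arcadlin) is induced by neuronal activity and takes part in the uptake of N-cadherin. It was 3952 ± 659 in SHAM, 3653 ± 246 in OVX, 3635 ± 271 in Prevention and 3697 ± 509 in Treatment (SD, n = 7, 7, 5 and 5), and its difference in Prevention against OVX was -0.01 (adjusted p 0.981). Pcdh17, a synaptic delta-2 gene, was 1902 ± 203, 1772 ± 222, 1886 ± 191 and 1839 ± 117, and Pcdh18 was 203 ± 55.7, 213 ± 39.9, 221 ± 27.6 and 208 ± 40.9 in the same order. Pcdh19, mutated in an epilepsy that affects mainly females, was 1581 ± 232, 1358 ± 230, 1611 ± 325 and 1431 ± 195. The 4 groups overlapped in each of these genes.

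The remaining genes were not assigned to a delta group here. Pcdh20 was 3313 ± 208 in SHAM, 3157 ± 570 in OVX, 3639 ± 445 in Prevention and 3582.5 ± 408 in Treatment (SD, n = 7, 7, 5 and 5). Pcdh15, known from the tip links of inner ear hair cells, was 464 ± 49.4, 411 ± 103, 469 ± 51.5 and 445 ± 34.4. Pcdh12, an endothelial protocadherin, was 43.6 ± 14.2, 36.7 ± 11.9, 39.2 ± 11.9 and 44.6 ± 18.1. In whole tissue, fewer cells of a type and less RNA per cell cannot be told apart, for these genes as for the others.

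**Figure D3:**
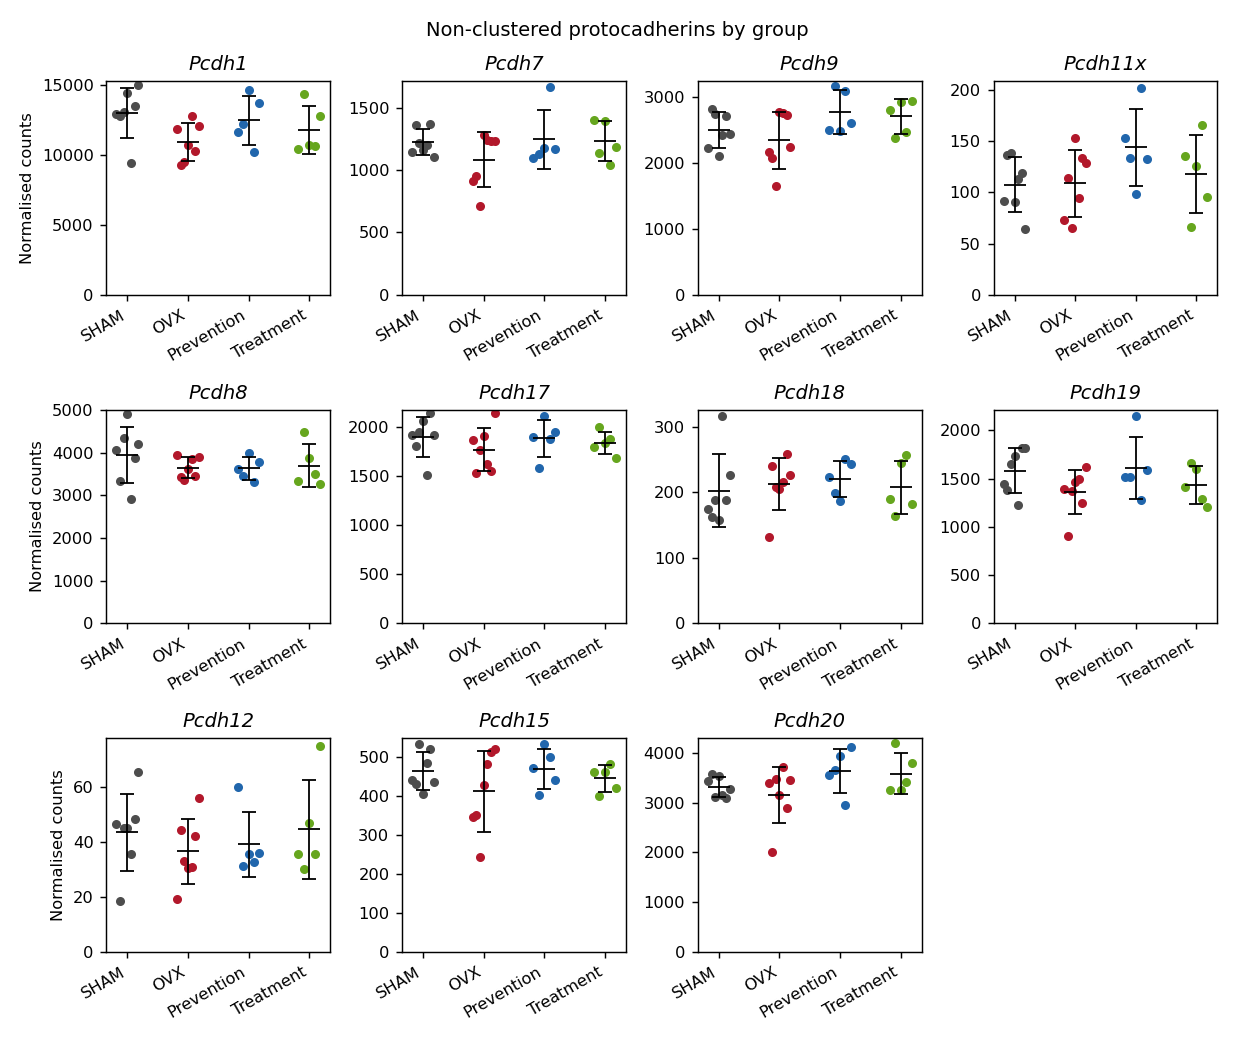
Normalised counts (vertical axes, from 0) of the 11 non-clustered protocadherins in the 4 groups, 1 point per library, with the group mean ± SD. The groups overlap in every panel, and single libraries lie apart, such as SHAM 5 at 9411 in Pcdh1 and at 318 in Pcdh18.

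Within groups, pairs of members moved together from library to library. Pearson's r was computed over 24 libraries on log2 values with the group mean removed, for all 946 pairs, with 100000 permutations within groups and adjustment over the pairs. At an adjusted p under 0.05 there were 25 positive pairs and 1 negative pair. The pairs named here were chosen after their values were seen. The strongest was Pcdhb5 with Pcdhb6, neighbours in the array, with r = 0.911 and Spearman's rho = 0.843 (permutation p 1e-05 for both, the smallest the permutations can give; adjusted p 0.00473), and r = 0.845 without the 2 libraries farthest from the median of Pcdhb5. Within the 17 and the 7 libraries of the 2 library sets r was 0.941 and 0.79.

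Pcdhb9 belonged to the same trio. Its r was 0.883 with Pcdhb5 (rho 0.85, permutation p 1e-05 for both, adjusted p 0.00473, 0.844 without 2 libraries) and 0.815 with Pcdhb6 (rho 0.81, permutation p 3e-05 for both, adjusted p 0.00709 and 0.00946, 0.81 without 2 libraries). Within the 2 sets the first was 0.884 and 0.903, and the second 0.813 and 0.824. Pcdhb7, which lies between Pcdhb6 and Pcdhb8, did not follow this trio, with r = -0.409 to Pcdhb6 (permutation, adjusted p 0.288).

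Pcdhb8, whose promoter window nearly equals that of Pcdhb6, ran opposite to the trio. Its r with Pcdhb5 was -0.688 and its rho -0.749 (permutation p 0.00103 and 8e-05, adjusted p 0.0443 and 0.017), and -0.693 without the 2 farthest libraries. Within the sets it was -0.627 and -0.952. With Pcdhb6 and Pcdhb9 it was -0.608 and -0.644 (rho -0.651 and -0.738; permutation p 0.00617 and 0.00206 for r, 0.0019 and 0.00018 for rho; adjusted p 0.0912 and 0.0553 for r, 0.0642 and 0.021 for rho), and -0.641 and -0.645 without 2 libraries.

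The ratio of Pcdhb6 to Pcdhb8 shows the size of this variation. It ran from 0.223 in SHAM 7, where Pcdhb6 was 49.8 and Pcdhb8 223 normalised counts, to 2.00 in SHAM 3, where they were 154 and 77.2. Its range was 0.519 to 1.34 in OVX, 0.445 to 1.70 in Prevention and 0.617 to 1.67 in Treatment, so the ranges of the groups overlapped. Group differences in these genes were small beside this spread. Pcdhb5 ran from 152 to 476 in SHAM, from 286 to 443 in OVX, and its values were 445, 340, 371, 298 and 473 in Prevention and 293, 402, 475, 330 and 536 in Treatment. The part of reads from sequence that Pcdhb6 and Pcdhb8 share was not tested.

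**Figure D4:**
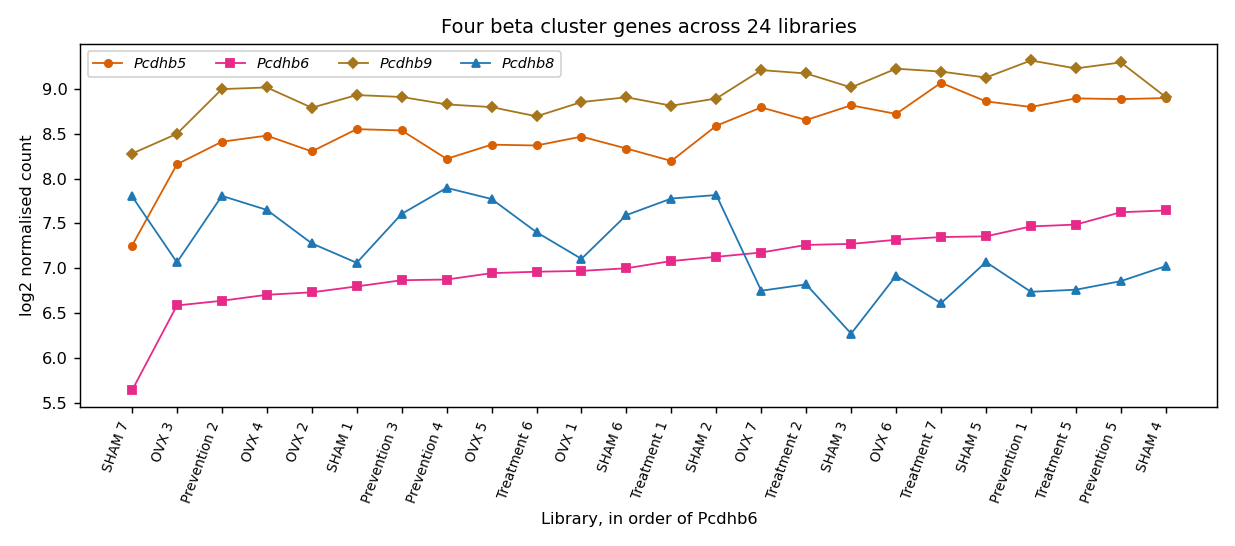
Log2 normalised counts (vertical axis) of Pcdhb5, Pcdhb6, Pcdhb9 and Pcdhb8 in the 24 libraries, placed from left to right by the level of Pcdhb6, with lines only to guide the eye. Pcdhb5 and Pcdhb9 go up with Pcdhb6 (r = 0.911 and 0.815 within groups), while Pcdhb8 goes down (r = -0.608), and the groups are mixed along the axis.

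Across whole arrays co-variation was weaker. The median r over pairs was 0.07 within the beta array (120 pairs), 0.35 within the gamma array (105 pairs), 0.09 between beta and gamma genes, and 0.08 among the non-clustered genes. Between gamma and non-clustered genes, which share no array, it was 0.23 (165 pairs), and between beta and non-clustered genes 0.03 (176 pairs). These pairs share libraries and their normalisation, and gamma genes share sequence. Outside the beta array, Pcdh7 and Pcdh9, both of the delta-1 group, had r = 0.787 (rho 0.707, permutation p 9e-05 and 0.00098, adjusted p 0.0158 and 0.0403, 0.698 without 2 libraries), and Pcdh1 and Pcdh8 had r = 0.757 (rho 0.737, permutation p 0.0001 and 9e-05, adjusted p 0.0158 and 0.017, 0.602 without 2 libraries). A pair across classes, Pcdh15 with Pcdhga9, had r = 0.788 (0.809 and 0.593 within the 17 and the 7 libraries of the 2 library sets).

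The libraries with much Tcf7l2 differed in several members, within the groups. Of the 11 non-clustered genes, Pcdh1, Pcdh19 and Pcdh20 were lower and Pcdh18 higher in the 5 libraries with Tcf7l2 over 1000 than in the other 19, and of the 33 clustered genes Pcdhga7 and Pcdhgb8 were lower, by limma with group and this division as terms. The background share called was 10.1% (4.85% higher and 5.29% lower). This division was drawn from the data and is not one of the study's groups. Counting members whether they passed or not, 13 of 15 gamma genes had a negative difference (median -0.18), against 9 of 16 beta genes (median -0.05). Of the non-clustered genes 7 of 11 were negative (median -0.07), and the median over all tested genes was -0.00.

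Pcdh19 was 1512 and 1280 normalised counts in Prevention 1 and 4, 1291 in Treatment 6, 908 in OVX 2 and 1228 in SHAM 5, and ran from 1201 to 2153 in the other 19 libraries with a median of 1515. The 5 libraries lay at or under the median of the others. The log2 difference was -0.38 with a standard error of 0.09 and an adjusted p of 0.00627 by limma, and it had the same direction in 4 of 4 groups. Without OVX 2 the adjusted p was 0.0714. Pcdh1 ran from 9288 to 11671 in the 5 libraries and from 9492 to 15011 in the others (log2 difference -0.32, adjusted p 0.00591, and 0.0527 without SHAM 5). Pcdh20 ran from 2010 to 3547.5 and from 2884 to 4193 (-0.29, adjusted p 0.0205, but 0.232 without OVX 2 and 0.0645 without Prevention 4). Each of these genes overlapped between the 2 kinds of library.

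Pcdh18 went the other way. It was 224 and 251 normalised counts in Prevention 1 and 4, 257 in Treatment 6, 241 in OVX 2 and 318 in SHAM 5, and ran from 133 to 258 in the other 19 with a median of 191. The log2 difference was 0.39 with a standard error of 0.12 and an adjusted p of 0.049 by limma. It did not pass without Prevention 4, Treatment 6, OVX 2 or SHAM 5, at adjusted p values from 0.082 to 0.244. Of the clustered genes, Pcdhga7 ran from 474 to 695 in the 5 libraries and from 545 to 779 in the others (-0.29, adjusted p 0.00774, and 0.075 without SHAM 5). Pcdhgb8 ran from 382 to 468 and from 436 to 570 (-0.21, adjusted p 0.0128, and 0.0512 and 0.089 without Prevention 4 and OVX 2). The summed choroid plexus markers ran from 6689 to 106670 in these libraries (median 104730) and from 4272 to 197280 in the others (median 7451), and SHAM 5 was the library at 6689. The summed hippocampal neuron markers ran from 136140 to 187640 (median 140580) and from 147020 to 213300 (median 188250). Which tissue part a member follows was not tested.

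**Figure D5:**
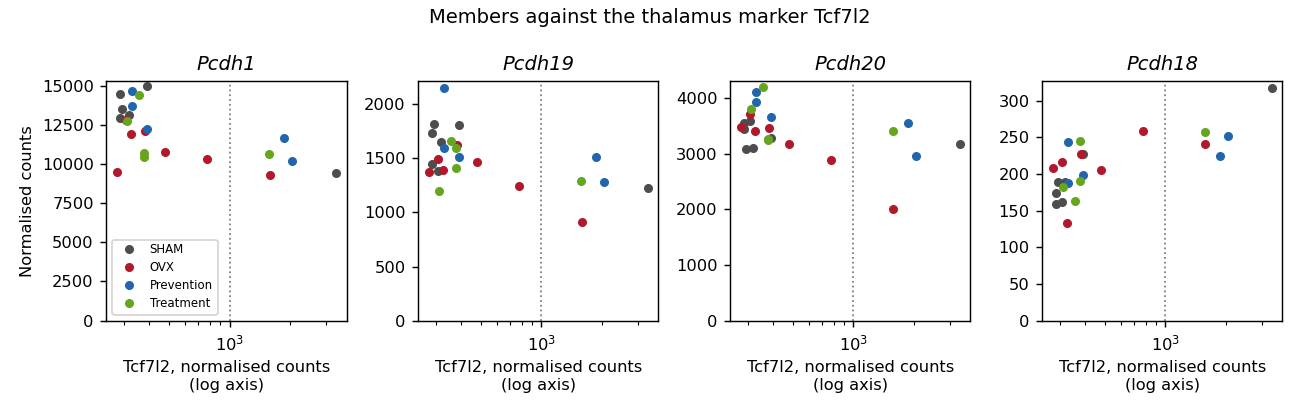
Normalised counts of Pcdh1, Pcdh19, Pcdh20 and Pcdh18 (vertical axes, from 0) against Tcf7l2 (horizontal log axis, normalised counts) in 24 libraries coloured by group, with a dotted line at 1000. To the right of the line lie 5 libraries, with lower medians than the other 19 in Pcdh1 (10217 and 12806), Pcdh19 (1280 and 1515) and Pcdh20 (3163 and 3452) and a higher one in Pcdh18 (251 and 191), and the 2 kinds of library overlap in each panel.

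Genes that act with the protocadherins gave 1 call. Of the regulators of promoter choice (CTCF, cohesin and DNA methylation genes), 19 of the 20 listed were tested, and 0 passed in any comparison. Of the signalling and binding partners 26 of 27 were tested, and of the classical and atypical cadherins 38 of 39, with 0 cadherins passing. The call was Marcks, a membrane and actin binding protein that gamma protocadherins are known to act on, which rose in Prevention against SHAM, from 3377 ± 245 (SD, n = 7) to 4727 ± 464 normalised counts (n = 5), a log2 difference of 0.48 with an adjusted p of 0.00519 by limma, where 0.354% of all tested genes were called. With the library set as a term the log2 difference was 0.18 (adjusted p 0.936), and without the 5 libraries with Tcf7l2 over 1000 it was 0.46 (adjusted p 0.104). In Prevention against OVX it was 0.33 (adjusted p 0.0512).

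In Prevention against OVX, 13 of the 19 regulators had a positive log2 difference (median 0.10), 20 of 26 partners (median 0.07) and 26 of 38 cadherins (median 0.04), beside the 50.2% of all genes. The regulators nearest to the threshold were Wapl, which releases cohesin from chromatin, with 1657 ± 99.2 in Prevention and 1439 ± 123 in OVX (0.21, adjusted p 0.0947), and Pds5b (0.15, adjusted p 0.131). Rac1, a small GTPase of the actin pathway, was 12757 ± 755 and 11454 ± 821 (0.16, adjusted p 0.117). Among the cadherins Fat3 was 1650 ± 141 in Prevention and 1136 ± 396 in OVX (0.64, adjusted p 0.108), and Clstn2 4377 ± 870 and 3429 ± 590 (0.35, adjusted p 0.127). In OVX against SHAM 6 of 19 regulators, 6 of 26 partners and 13 of 38 cadherins were positive, with medians of -0.03, -0.05 and -0.03.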

How the data were processed

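Hippocampal RNA of 24 libraries in 4 groups was sequenced; groups and replicate numbers came from the labels. Per the submitters' processing notes, the authors used kallisto 0.43 and DESeq2 (version not given); the deposited signal is a normalised count for every gene in each library, without a natural unit. For the genome build and annotation, the sources used here give no name. Read counts are not given either, so the depth is unknown and precision rests on the spread between libraries.

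Values were analysed as log2(value + 1) in R 4.3.3 with limma 3.58.1, so differences of low genes are understated. Genes with a mean of at least 10 were tested (16119). The 24 libraries entered 1 fit with 1 mean for each group. The variance trend of empirical Bayes was used for the 6 contrasts, adjusted by Benjamini-Hochberg at 0.05. The script was tested on simulated data. Named genes were every passing member, the smallest p per class, the 3 largest differences each way among members with a mean of at least 50, all non-clustered members, and the widest spread; of the other lists, passing genes and the 2 smallest p. Members and lists were chosen with earlier results of these data known. Alternatives were another pseudocount, filter, scaling, fit, block, set term, covariates and leaving out libraries. Plots used matplotlib 3.10.9 under Python 3.11.15.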

Additional observations from a re-analysis of the deposited data

Results flagged for a closer look

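In 11 of 192 sets of one gene's values within a group (45 members and the 3 array sums, in 4 groups), the highest or lowest library lay farther from its neighbour than Dixon's critical value allows, and chance gives about 1 in 20. SHAM 5, which also had the most Tcf7l2, was involved in 3 of them: Pcdh1 was 9410.7 normalised counts there, Pcdhb2 was 34.9 and Pcdh18 was 318. Pcdh18 was 133 in OVX 1. SHAM 7 had the lowest Pcdhb9 at 310.21, and SHAM 6 the highest Pcdhga4 at 480.36. In Prevention, Pcdh12 was 60.1 in library 1, Pcdhga1 was 137 in library 3 and Pcdh7 was 1666 in library 4. In Treatment, Pcdhga1 was 130 in library 1, and Pcdhb1, which was too low to be tested, was 4.45 in library 6.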

How the results depend on the processing

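Counts of passing members kept to 0 under every alternative run, apart from 1 member in Prevention vs OVX with the choroid plexus score, the thalamus score or Tcf7l2 over 1000 as a term, and 1 in Prevention vs SHAM with either score; the first ran from 0 to 1 when 1 library was left out (1 without OVX 7). The Tcf7l2 alternatives, and all those for Marcks, were chosen after seeing the data. With the library set as a term the mean log2 difference in Prevention vs OVX was 0.10 for clustered genes (0.14 without it) and 0.27 for non-clustered genes (0.19 without it). Some differences turned sign, none of which passed before or after, and the cause was not tested. With the set term, Prevention vs OVX gave 0.042 for Pcdhga3 and 0.000772 for Pcdhb7, and Prevention vs SHAM gave -0.36 for Pcdhga1 (0.55 without the term) and 0.000406 for Pcdhga3. Pcdh8 in Prevention vs OVX was 0.022 with the thalamus score, 0.041 with the Tcf7l2 term and 0.021 without the 5 libraries with Tcf7l2 over 1000; without those libraries Pcdhb7 in Prevention vs OVX was 0.089 and Pcdhga7 in Treatment vs Prevention was -0.021. When 1 library was left out, Prevention vs OVX ran from -0.11 to 0.000771 for Pcdhb7 and from -0.0426 to 0.0257 for Pcdh8, and Treatment vs OVX from -0.13 to 0.0559 for Pcdhga3 and from -0.40 to 0.13 for Pcdhga1. Same-numbered libraries mostly did not deviate together (8 of 30 correlations over 0.1, from -0.442 to 0.371). These correlations cannot show whether the numbers pair the libraries, and no label says what the numbers mean. With the replicate block 0 members passed by limma. In that fit Marcks in Prevention vs SHAM did not pass (0.47, adjusted p 0.0682), and Pcdhga1 in Treatment vs OVX was 0.0337.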
